A study of Mus musculus with 12 samples.

Results

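Expression of 40 imprinted genes was followed in mouse gonocytes, the germ cells of the fetal and newborn testis, across 4 stages. The members were taken by gene symbol from a list of known imprinted genes, not from measured values, and all 40 were found among the 55487 genes of the deposited table. They lie at 19 imprinted loci, of which 3 (H19-Igf2, Dlk1-Meg3 and Rasgrf1, with 8 members) are known to be methylated on the paternal allele and 15 (31 members) on the maternal allele. Zdbf2 lies at a locus with methylation known on either allele and was counted apart. These assignments are textbook knowledge. Neither methylation nor the allele of origin was measured, so every level below is the sum over both alleles.

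Imprinted genes are expressed from only the maternal or only the paternal copy, because a control region in each cluster is methylated in the germ line of a single sex. In germ cells these methylation marks are first erased and then laid down anew according to the sex of the embryo. In the male germ line the paternally methylated control regions gain methylation in gonocytes before birth, whereas the maternally methylated ones remain unmethylated there and gain methylation later, in oocytes of the female germ line.

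RNA was sequenced in 12 libraries of male germ cells from Mvh-Venus mice, in which a fluorescent reporter driven by the germ cell gene Mvh (Ddx4) marks the germ line. Each stage had 3 libraries: 2 stages were embryonic (days E13.5 and E16.5) and 2 were postnatal (P0, when pups are born, and P3, 3 days later). A library is called by its stage and its column's number (1, 3 or 4). Titles and source names call all animals WT, but the genotype tag reads Morc1 (+/-) at E13.5 and P0 and Morc1 (-/-) at E16.5 and P3, so consecutive stages also differ in that tag and stage and tag cannot be told apart there. The labels do not say whether the libraries of a stage came from separate animals or pools, so p-values measure only the spread between these libraries.

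Morc1 itself had normalized counts of 1621, 1830.3 and 1640.5 at E13.5, then 32917, 32890.2 and 28328 at E16.5, 7708, 7501 and 7279.9 in the P0 libraries and 10929, 10584 and 11129 in the P3 libraries, so the stages tagged (-/-) were not low in it. The labels do not say which part of Morc1 a mutant allele would lack, so this sum over the whole gene does not settle the tag. Recovered reads numbered 40946616 to 51533747 per library. All 6 germ cell markers were detected at every stage, with summed normalized counts of 130302 to 246135 per library. Markers of other testis cells were also present: the 7 Sertoli markers summed to 3352 to 26376 and the 8 peritubular and interstitial markers to 307 to 5902. In such bulk samples, fewer cells of a type and less RNA per cell cannot be told apart. Levels are given as normalized counts, that is reads divided by 1 size factor per library. A log2 fold change is a difference between stages of the mean log2(normalized count + 1), tested with limma. The deposited factors gave P0 about the same median level as its neighbours. With equal library totals instead, the median of all genes moved from 0.31 to 0.84 for E16.5 against E13.5, from -0.01 to 0.68 for P0 against E16.5 and from 0.05 to -0.86 for P3 against P0, so small differences depend on the scaling.

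Of the 40 members, 38 reached 10 normalized counts in 3 or more libraries and were tested. Rtl1 and Magel2 were below this level. All 38 differed among the 4 stages (limma F-test, adjusted p under 0.05), as did 95.2% of all 22384 genes tested, so the count itself is not particular to imprinted genes. Between E13.5 and E16.5, 35 of 38 members passed the test against 80.1% of all genes, with 24 higher and 11 lower at E16.5 (45.5% and 34.6% of all genes). From E16.5 to P0, 25 of 38 passed against 61.0% of all genes, with 13 higher and 12 lower (27.6% and 33.4%). With equal library totals 22 members were higher and 3 lower, and of all genes called in that setting 78.7% were higher. From P0 to P3, 29 of 38 passed against 76.5%, with 12 higher and 17 lower (40.1% and 36.4%). With equal library totals 6 members were higher and 29 lower, and of all genes called 25.2% were higher. The stage with the highest mean was E13.5 for 8 members (30.7% of all genes tested), E16.5 for 12 (19.3%), P0 for 9 (29.9%) and P3 for 9 (20.2%).

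**Figure D1:**
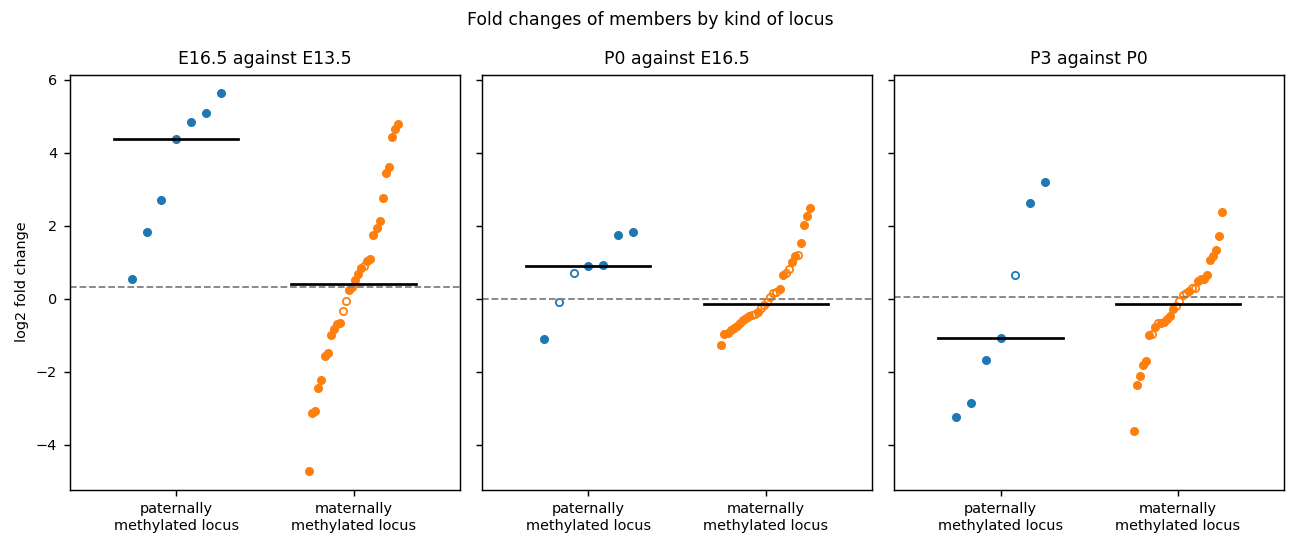
Log2 fold change of each tested member in the 3 comparisons of consecutive stages, split into members at paternally and at maternally methylated loci. Filled points passed the limma test and open points did not, the black bar is the median of the list and the dashed line the median of all genes. At E16.5 against E13.5 all 7 members at paternally methylated loci lie above 0, with a median of 4.37, while the 30 at maternally methylated loci spread on either side of 0 with a median of 0.41.

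Members of the Dlk1-Meg3 cluster on chromosome 12 were low or absent at E13.5 and rose by E16.5. Of the 4 tested members 3 rose further by P0, and all 4 were lower again at P3. This cluster carries the protein genes Dlk1 and Rtl1, expressed from the paternal copy, and the long noncoding RNAs Meg3, Rian and Mirg, expressed from the maternal copy. Dlk1 (chr12:109452823-109463336, GRCm38) encodes a membrane protein of the Notch ligand family that is secreted in part. Its normalized counts were 87.6, 138 and 109 in the E13.5 libraries and 2641, 2233 and 2048 in those of E16.5, followed by 4131, 4526 and 4518 on the day of birth and 2041, 2130.1 and 2089 by P3. The stages overlapped only between E16.5 and P3. Dlk1 rose by 4.37 (standard error 0.131, adjusted p = 2.54e-14) on the log2 scale from E13.5 to E16.5, rose by 0.93 (standard error 0.131, adjusted p = 1.12e-05) to P0 and then changed by -1.07 (standard error 0.131, adjusted p = 1.33e-06) to P3.

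Meg3 (chr12:109541001-109571726), the long noncoding RNA that marks the maternal copy, had 13.7, 19.6 and 8.41 at the first stage (E13.5), 406, 399.8 and 416 in the E16.5 libraries, 759, 698 and 830.2 at birth and 261, 232 and 226 on P3. No library of one stage reached the range of another. Its log2 fold changes were 4.85, 0.90 and -1.67 over the 3 consecutive steps, with adjusted p of 3.39e-12, 0.00211 and 3.28e-06. Rian (chr12:109603940-109661716), host of many small nucleolar RNAs, had 15.8, 20.7 and 34.7 at E13.5, then 149, 168 and 145 at E16.5, 527, 496 and 521 in the P0 libraries and 58.1, 94.3 and 62.8 in the P3 libraries. It thus peaked at P0 more sharply than Meg3, with log2 fold changes of 2.72, 1.74 and -2.86. Mirg, host of a large group of microRNAs, was at 0 in all 3 libraries at E13.5 and had 53.4, 27.9 and 24.5 at E16.5. The mean of the E16.5 libraries was at least 11-fold above the mean of the floor, 3 reads per library, at E13.5. It had 30.3, 27.2 and 37.6 at P0 and 3.88, 0 and 7.09 at P3, and its fall at P3 gave a log2 fold change of -3.25 (standard error 0.618, adjusted p = 0.000154). No E13.5 or P3 library of Mirg reached 10 normalized counts. It was tested only through E16.5 and P0, which partly set this fall. Rtl1, a gene derived from a retrotransposon and needed in the placenta, had 0 reads at E13.5 and at most 9.65 normalized counts in any library, its highest value at P0.

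The 250 bases before the Meg3 start given by RefSeq (chr12:109540746-109540995, GRCm38.p6, plus strand) are shown because the window holds a GCGGCA, in capitals, the reverse complement of TGCCGC. That hexamer is the core recognised, when methylated, by ZFP57, a zinc finger protein that maintains imprints.
Meg3: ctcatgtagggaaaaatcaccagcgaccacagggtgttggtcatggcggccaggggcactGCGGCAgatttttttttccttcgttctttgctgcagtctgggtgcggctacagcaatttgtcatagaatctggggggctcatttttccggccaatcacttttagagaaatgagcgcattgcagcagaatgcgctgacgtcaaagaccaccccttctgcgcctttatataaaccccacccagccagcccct
Promoter windows of this length were found for 32 of the 40 members, with 46 windows in all. TGCCGC or GCGGCA, either strand counted, was present in 8 of these 46 windows (17.4%) and in 8.68% of all 32851 windows. The 8 include overlapping windows of Mest, with starts at chr6:30738050 and chr6:30738053, that share their matches. The hexamer itself holds a CG. The median number of CG was 11.5 in windows of members and 6 in all windows, so the 2 shares do not compare windows alike in CG. The 7 members with a match were Meg3, Zim1, Mest, Copg2, Plagl1, Mcts2 and Zdbf2. A match describes these letters only.

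**Figure D2:**
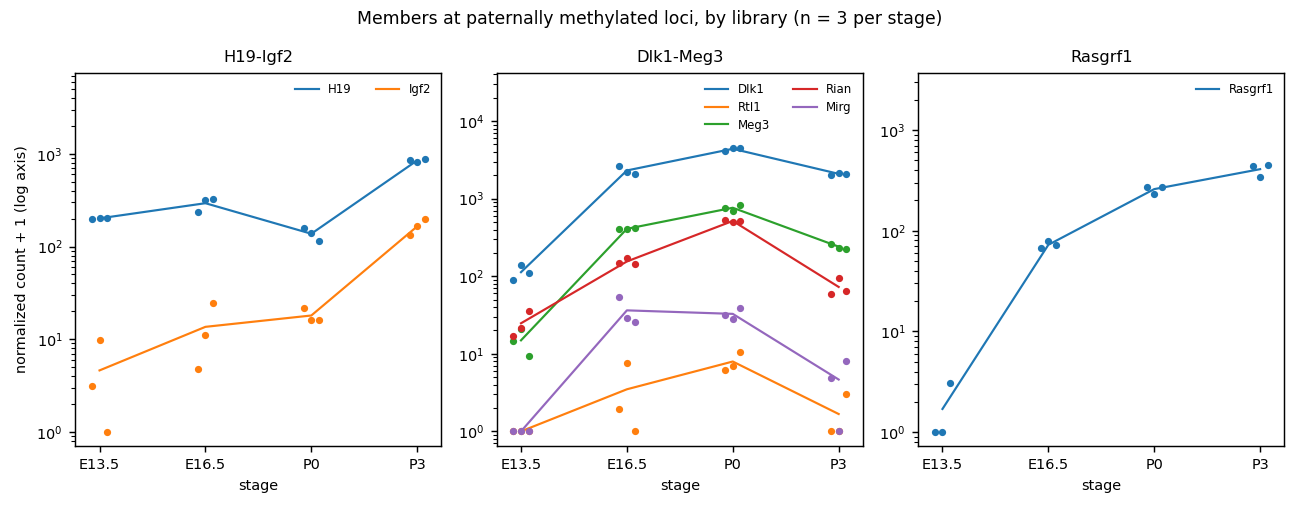
Normalized count + 1 per library on a log axis for the 8 members at paternally methylated loci, by stage, with lines through the stage means. Dlk1, Meg3, Rian, Mirg and Rasgrf1 lie higher in every E16.5 library than in any E13.5 library; H19 and Igf2 have their highest values at P3, with H19 at 819 to 879 and Igf2 at 131 to 197.

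Dlk1 is also expressed by fetal Leydig cells, the steroid-producing cells between the tubules, so their markers were set beside it. The 7 Leydig markers summed to 827, 1538 and 8265 in E16.5 libraries 1, 3 and 4 and to 7376, 3980 and 1548 in P0 libraries 1, 3 and 4. Dlk1 in the same libraries was 2641, 2233 and 2048 at E16.5 and 4131, 4526 and 4518 at P0. H19 was 236, 316 and 325 at E16.5 and 157, 138 and 114 at P0, the order of the Leydig sum in both stages. Igf2, Sgce, Plagl1, Peg13 and Gnas had this order in both stages too, and no other member did. At P3 the Leydig sum was 499 to 527, with Insl3 and Lhcgr at 0 in all 3 libraries, while Dlk1 was 2041 to 2130. Without E16.5 library 4 and P0 library 1, an alternative added after these sums were seen, 33, 24 and 29 members passed over the 3 consecutive steps. Summed markers of 3 other kinds of cell were higher at E16.5 and P0 than at E13.5 or P3, as Meg3, Rian and Mirg were. Dlk1 overlapped between E16.5 and P3. Single markers did not all follow these sums. The Sertoli marker Wt1 had means of 85.7 at E13.5 and 48.5 at E16.5, and Clu alone had 16530 at P0. Among the peritubular and interstitial markers Nr2f2 had 18.8 at E13.5 and 17.5 at E16.5. Col1a1 (174 and 174.5) and Tcf21 (91.97 and 92.16) were not lower at P3 than at P0. The 8 peritubular and interstitial markers summed to 307 to 345 at E13.5, 2342 to 2861 at E16.5, 5410 to 5902 at P0 and 1855 to 2249 by P3, with all 8 detected at every stage. The 7 Sertoli markers summed to 3352 to 4593, 10834 to 15438, 13247 to 26376 and 5218 to 6776 in the same order. The 5 erythroid markers summed to 66.3 to 414, 1749 to 2416, 1562 to 2483 and 287 to 521. The 5 mast cell markers were at 0 at E13.5 and summed to 1277 to 2856 at P0. Other sums took another course. The 5 endothelial markers summed to 4429 to 5192 at E13.5 and 730 to 891 at E16.5. Most of this sum at E13.5 was Pecam1, with means of 4618 at E13.5 and 282 at E16.5. The other endothelial markers went the other way: Cdh5 from 9.92 to 29.8, Kdr from 2.84 to 38.5, Tek from 98 to 387 and Emcn from 0 to 46.1. The 5 macrophage markers summed to 1012 to 1172 at E16.5, 126 to 365.5 at P0 and 269 to 315 at P3. The part of any of these cells, Leydig cells included, in the levels of imprinted genes was not tested.

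**Figure D3:**
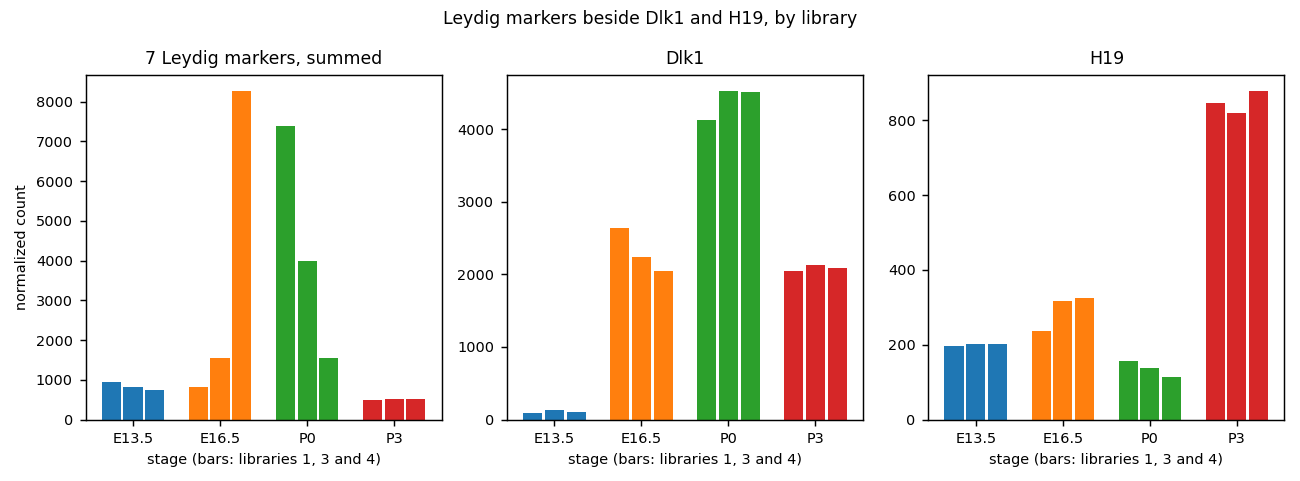
Normalized counts of the 7 Leydig markers, summed, of Dlk1 and of H19 in separate panels. Each panel has 1 bar per library, grouped and coloured by stage, on a linear axis. Within E16.5 and within P0 the Leydig sum spans 827 to 8265 and 1548 to 7376, while Dlk1 stays at 2048 to 2641 and 4131 to 4526. H19 spans 236 to 325 and 114 to 157, with its libraries in the order of the Leydig sum in both stages.

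At the H19-Igf2 locus on chromosome 7, H19 and Igf2 had their highest levels at P3. H19, a long noncoding RNA expressed from the maternal copy (chr7:142575529-142578143), had 197, 201 and 202 in the E13.5 libraries and 236, 316 and 325 in those of E16.5, followed by 157, 138 and 114 on the day of birth and 847, 819 and 879 by P3. Under the deposited factors it was lowest at P0 and no stage overlapped another. The difference of P0 from E13.5 was -0.56 (standard error 0.152, adjusted p = 0.00253), but it was not called with TMM factors (adjusted p = 0.121) or median-of-ratios factors (adjusted p = 0.589) and turned to 0.60 (adjusted p = 0.00181) with equal library totals. H19 rose by 0.53 on the log2 scale to E16.5, fell by 1.09 to P0 and rose by 2.64 (standard error 0.152, adjusted p = 1.04e-10) to P3. Igf2, a growth factor expressed from the paternal copy (chr7:142650766-142666816), had 2.11, 8.71 and 0 at the first stage (E13.5), 3.82, 10.2 and 23.7 in the E16.5 libraries, 20.9, 15.2 and 15 at birth and 131, 164 and 197 on P3. It rose from P0 to P3 by 3.19 (standard error 0.677, adjusted p = 0.000429). Its rise of 1.82 from E13.5 to E16.5 rested on single libraries: it was 1.0 (adjusted p = 0.135) without E13.5 library 4 and 1.24 (adjusted p = 0.128) without E16.5 library 4. Of the exonic bases of Igf2, 62.8% are shared with the readthrough gene Gm49394, which had 0 reads in every library. How reads in shared exons were counted is not given in the sources used here.

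Rasgrf1, an exchange factor that activates Ras proteins and is expressed from the paternal copy (chr9:89909908-90026977), had the largest relative rise of the 38 members from E13.5 to E16.5 by log2 fold change. It had 2 reads in all at E13.5. Its normalized counts were 0, 0 and 2.1 at E13.5, then 65.8, 78.1 and 70.4 at E16.5, 270.5, 229 and 274 in the P0 libraries and 435, 339 and 448 in the P3 libraries. The ratio of E16.5 to E13.5 was 101, with a counting interval of 27.6 to 836. It rose again at P0 by 1.84 (standard error 0.364, adjusted p = 0.000355), a call that was lost with a pseudocount of 0.1 (adjusted p = 0.0976). From P0 to P3 the log2 fold change was 0.65 (adjusted p = 0.113), with all P3 libraries above all P0 libraries. edgeR on the recovered reads called this step, with an adjusted p of 0.00246.

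The lists of paternally and maternally methylated loci were compared by their medians only. At E16.5 against E13.5 all 7 tested members at paternally methylated loci were called higher, with a median log2 fold change of 4.37 beside 0.41 for the 30 at maternally methylated loci and 0.31 for all genes. In the latter list 16 were higher, 11 lower and 3 not called. At P0 against E16.5 the medians were 0.90 and -0.13 beside -0.01 for all genes, and 4 members at paternally methylated loci were higher and 1 lower. At P3 against P0 they were -1.07 and -0.14 beside 0.05, with 2 higher and 4 lower at paternally methylated loci. Of these 7 members 4 belong to the single Dlk1-Meg3 cluster. The difference between the lists at E16.5 against E13.5 was 3.96, and it fell to 2.03 with a pseudocount of 10 and rose to 4.58 with 1 value per locus. Mirg and Rasgrf1, with 0 and 2 reads in all at E13.5, passed the filter only through later stages. Igf2 and Meg3 too did not reach 10 normalized counts in all 3 E13.5 libraries and needed later stages to pass. Zim1, Kcnq1, Airn, Peg10 and Peg13 at maternally methylated loci passed in the same way, and Rtl1 was not tested. For members that passed in this way, a higher level after E13.5 was partly set by the filter. With 1 value per locus, the difference for the step from P0 to P3 turned from -0.93 to 0.50. None of the 7 peaked at E13.5, 1 (Mirg) peaked at E16.5, 3 in the P0 libraries and 3 in those of P3. At maternally methylated loci 8 of 30 peaked at E13.5, 11 in the E16.5 libraries, 5 in those of P0 and 6 in those of P3.

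Among the maternally methylated loci, the deepest falls after E13.5 were in Snrpn, Peg3 and Mest. Snrpn (chr7:59982495-60140219) encodes a spliceosomal protein and is expressed from the paternal copy. Its normalized counts were 8570.2, 8396 and 8559 in the E13.5 libraries and 223, 396 and 378 in those of E16.5, followed by 417, 392 and 305 on the day of birth and 1331, 1187 and 1139 by P3. Its log2 fold change to E16.5 was -4.72 (standard error 0.169, adjusted p = 2e-13), the lowest of all tested members, and it rose again from P0 to P3 by 1.72 (standard error 0.169, adjusted p = 9.12e-08). Per kilobase of exon Snrpn had the highest level of all members at E13.5, with 3941 normalized counts per kilobase, and 565 at P3. Of its exonic bases, 27.3% are shared with Gm38393 (mean 64.5 normalized counts at E13.5 and 11.1 at E16.5) and 10% with Snurf, which had 0 reads.

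Neighbours of Snrpn did not all share this course. To E16.5 Ndn and Mkrn3 rose, while Ube3a and 2 other imprinted genes nearby, Peg12 and Atp10a, fell. The mean of Peg12 went from 145 at E13.5 to 14.5 at E16.5 and that of Atp10a from 3057 to 868. Ndn (necdin, chr7:62346569-62350262), a growth-restraining protein gene also expressed from the paternal copy, had 2322, 2546 and 2586 at the first stage (E13.5), 3607, 3443 and 3523 in the E16.5 libraries, 2539.7, 2281 and 2186 at birth and 1672, 1504 and 1621 on P3. It was highest at E16.5, where Snrpn was lowest, and its log2 fold changes were 0.51, -0.60 and -0.55, the step at P0 turning to 0.07 with equal library totals. Mkrn3, which encodes a ubiquitin ligase known for restraining puberty, also had its highest mean at E16.5, with 547, 724 and 610.2 against 325, 312 and 269 at E13.5. Unlike Ndn it had 394, 306 and 331 at P0 and more again at P3, with 529, 526 and 570. P3 against E16.5 was not called for Mkrn3 (-0.20, adjusted p = 0.189), but was called lower with median-of-ratios factors (-0.38, adjusted p = 0.0134). Ube3a, the ubiquitin ligase gene that is expressed from the maternal copy in neurons, fell from 5744, 5549 and 5222 to 1688, 2154 and 1783, a log2 fold change of -1.56 (standard error 0.097, adjusted p = 1.91e-10), and its 3 later stages overlapped under the deposited factors, while P0 against E16.5 was called higher with TMM factors (0.36, adjusted p = 0.00318). Of its exonic bases, 27.3% are shared with other annotated genes, among them Snhg14. Magel2, a regulator of ubiquitin ligases, had at most 15.8 normalized counts in a library, at E16.5.

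Peg3 (chr7:6703892-6730431), a zinc finger protein gene of the paternal copy, had 8047, 7354 and 7514 at E13.5, then 656, 1043 and 944 at E16.5, 538, 528 and 567 in the P0 libraries and 439, 338 and 415 in the P3 libraries. Each stage lay below the one before it, and the log2 fold change to E16.5 was -3.14 (standard error 0.14, adjusted p = 2.54e-12). The later steps were -0.67 and -0.46, of which the former was -0.0043 (adjusted p = 0.981) with equal library totals. Usp29 (chr7:6730578-6967219), a gene with homology to ubiquitin proteases that starts on the opposite strand, had 433, 448 and 379 in the E13.5 libraries and 84.9, 84.6 and 97.3 in those of E16.5, followed by 115, 151 and 163 on the day of birth and 75.6, 88.4 and 83 by P3. Its log2 fold change to E16.5 was -2.23 (standard error 0.181, adjusted p = 6.45e-09), and unlike Peg3 it was then higher at P0, by 0.66. Zim1, a zinc finger gene of the maternal copy at the same locus, went the other way at E16.5, from 8.44, 9.79 and 4.21 to 30.5, 25.1 and 34.8, a log2 fold change of 1.93 (standard error 0.498, adjusted p = 0.002).

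The starts of Peg3 and Usp29 lie 146 bases apart. The interval between them (chr7:6730432-6730577, GRCm38.p6, minus strand, so that it reads towards Peg3) is shown because both transcripts leave from it, with its 5 CG dinucleotides in capitals.
Peg3-Usp29: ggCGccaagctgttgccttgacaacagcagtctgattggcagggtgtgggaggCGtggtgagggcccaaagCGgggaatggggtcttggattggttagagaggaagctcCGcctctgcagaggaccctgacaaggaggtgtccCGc
A CG was present in 92.1% of all 250-base promoter windows and in 93.5% of those of members. The median number of CG was 11.5 in windows of members and 6 in all windows.

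Mest fell and then returned. This paternally expressed gene (chr6:30723547-30748465) encodes a protein of the hydrolase family that sits in the endoplasmic reticulum. Its normalized counts were 5361, 5167 and 5352 at the first stage (E13.5), 603, 601 and 669.6 in the E16.5 libraries, 2864, 3055 and 3057 at birth and 6162, 6029 and 6433 on P3. No stage overlapped another, with E16.5 lowest and P3 highest. The log2 fold changes were -3.08 (standard error 0.0693, adjusted p = 1.53e-15), 2.26 (standard error 0.0693, adjusted p = 3.84e-13) and 1.05 (standard error 0.0693, adjusted p = 5.49e-10). Copg2 (chr6:30747554-30896794), a coat protein gene of vesicle transport that overlaps the end of Mest on the opposite strand, had 4694, 4294 and 4643 at E13.5, then 2721, 3220.0 and 2731 at E16.5, 2021, 2071 and 1861 in the P0 libraries and 2725, 3012 and 2553 in the P3 libraries. It had none of the recovery at P0: its log2 fold changes were -0.66, -0.54 and 0.48, of which the last 2 turned to 0.12 and -0.36 with equal library totals. The exons of Mest and Copg2 overlap (23.1% of Mest and 17.8% of Copg2), and whether the authors counted by strand is not given in the sources used here.

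Mcts2 and its host gene moved in opposite directions. Mcts2 (chr2:152687035-152687946) is an intronless gene of the paternal copy inside an intron of H13, which encodes the signal peptide peptidase. Mcts2 had 981, 1003 and 1029.5 in the E13.5 libraries and 315, 349.6 and 411 in those of E16.5, followed by 281, 296 and 262 on the day of birth and 1664, 1429 and 1283 by P3. H13 had 1139, 1135 and 1194 at the first stage (E13.5), 2816, 2280.0 and 2341 in the E16.5 libraries, 2344, 2158 and 2131 at birth and 1819.8, 1853 and 1806 on P3. The log2 fold change of Mcts2 to E16.5 was -1.49 (standard error 0.119, adjusted p = 4.95e-09) while H13 rose by 1.09 (standard error 0.0842, adjusted p = 3.17e-09). Mcts2 rose from P0 to P3 by 2.37 (standard error 0.119, adjusted p = 1.83e-11), and H13 changed by -0.27 (adjusted p = 0.00734). The small step of Mcts2 from E16.5 to P0 (-0.35) was 0.31 with equal library totals and -0.25 (adjusted p = 0.0927) without E16.5 library 4.

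The windows before the starts of Mest (chr6:30737800-30738049, plus strand) and Mcts2 (chr2:152686898-152687034, plus strand) are shown because both hold the hexamer, in capitals. Bases that GENCODE M21 counts as exon are left out.
Mest: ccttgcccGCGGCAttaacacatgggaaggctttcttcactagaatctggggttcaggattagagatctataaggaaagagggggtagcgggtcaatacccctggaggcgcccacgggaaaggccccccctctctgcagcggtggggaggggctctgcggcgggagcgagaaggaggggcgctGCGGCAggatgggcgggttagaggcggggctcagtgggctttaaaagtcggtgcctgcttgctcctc
Mcts2: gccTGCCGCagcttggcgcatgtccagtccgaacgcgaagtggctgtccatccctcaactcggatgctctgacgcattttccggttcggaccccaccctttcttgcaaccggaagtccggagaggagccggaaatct
The Mest window holds 2 matches and that of Mcts2 1. A window before another RefSeq start of Mest (chr6:30733256-30733505) holds 0. Members with the hexamer took different courses: Copg2 was highest at E13.5, Zim1 at E16.5, and Meg3, Plagl1 and Zdbf2 at P0. A link between the hexamer and these courses was not tested.

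**Figure D4:**
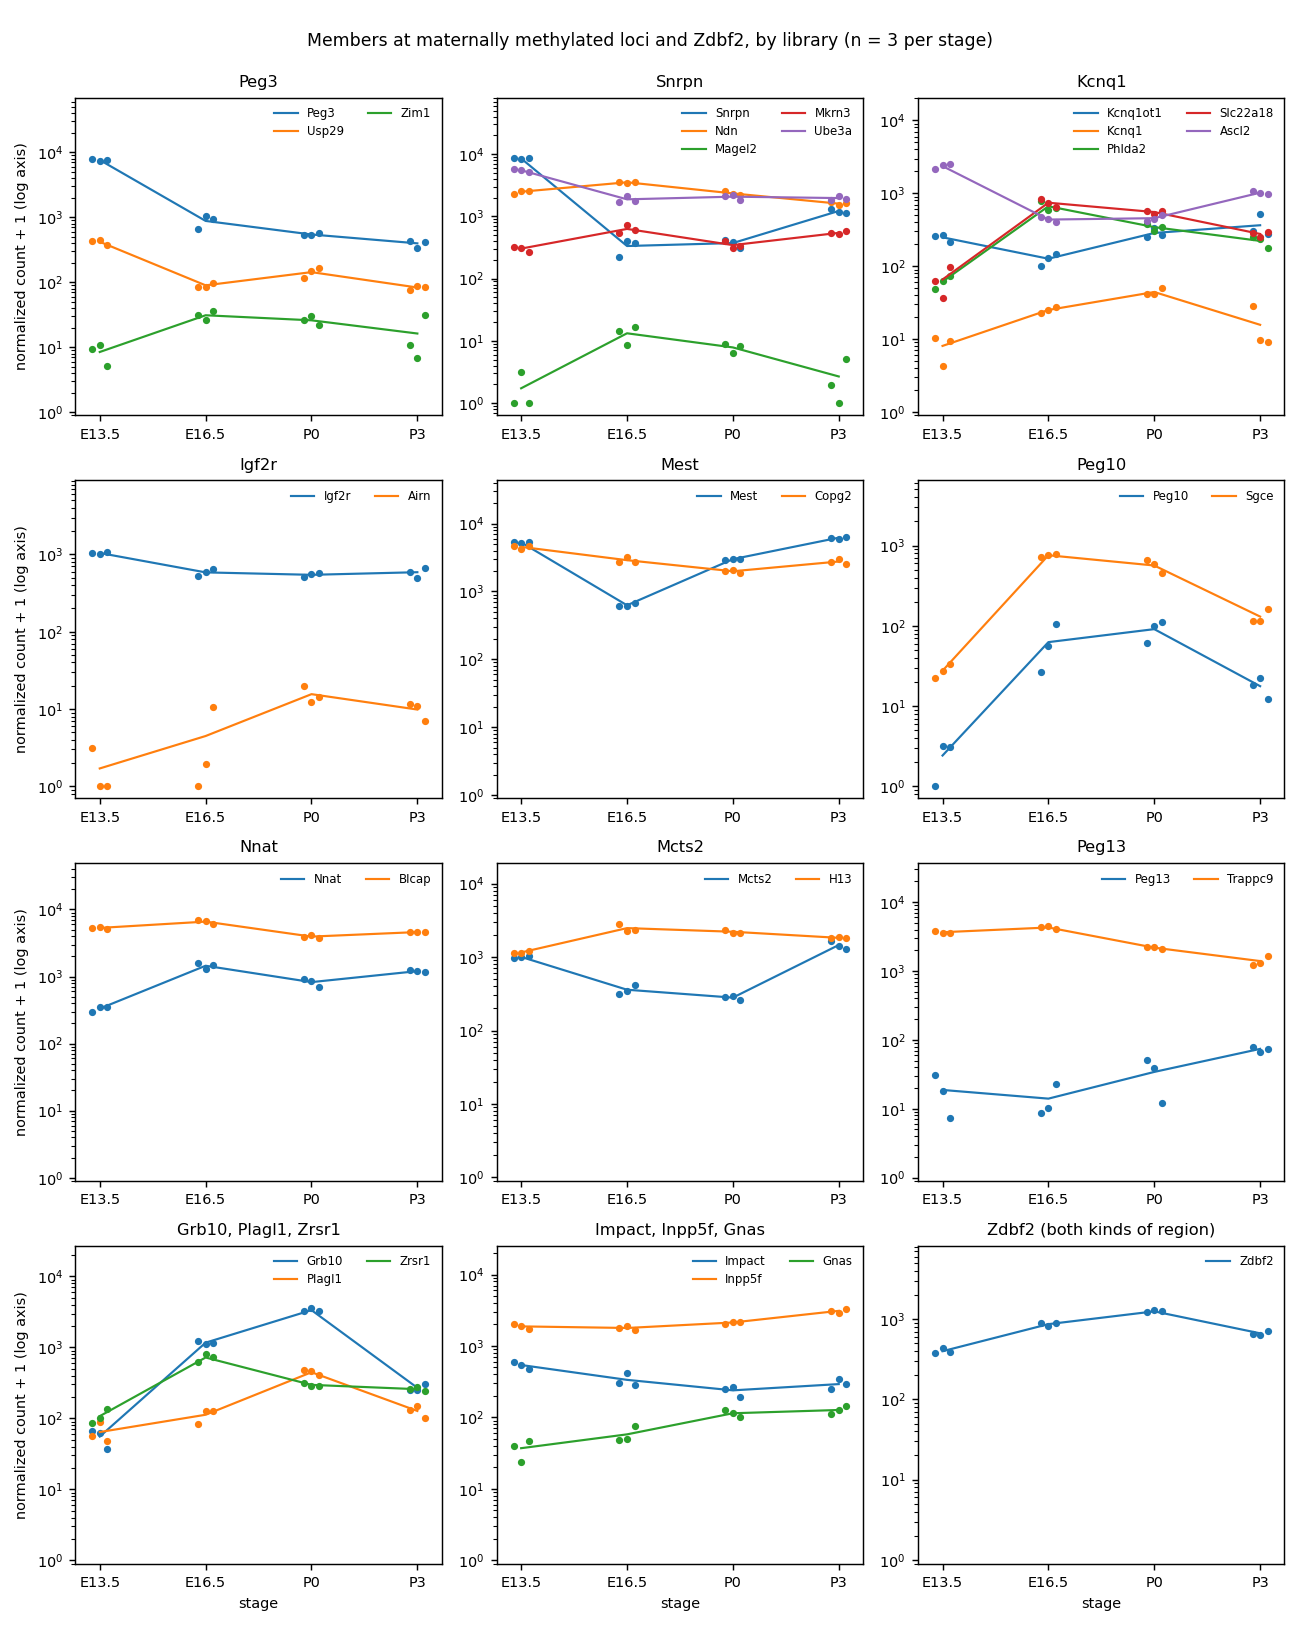
Normalized count + 1 per library on a log axis for members at maternally methylated loci, by stage, with lines through the stage means. Snrpn, Peg3 and Mest start at 5167 to 8570 at E13.5 and lie at 223 to 1043 at E16.5, whereas Grb10, Sgce and Phlda2 start at 21.1 to 72.6 and lie at 584 to 1237 at E16.5.

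At the Kcnq1 locus on chromosome 7, Phlda2 and Slc22a18 rose from E13.5 to E16.5 while Ascl2 fell. The locus is governed by the noncoding RNA Kcnq1ot1, transcribed from the paternal copy antisense to Kcnq1. Kcnq1ot1 had 259, 271 and 215 at E13.5, then 101, 129 and 146 at E16.5, 251, 335 and 268 in the P0 libraries and 307, 513 and 271 in the P3 libraries. Its E16.5 libraries were the lowest, and the step from E13.5 of -0.99 (standard error 0.219, adjusted p = 0.000577) on the log2 scale became -0.48 (adjusted p = 0.0644) with equal library totals. It rose by 1.179 (standard error 0.219, adjusted p = 0.000193) to P0. Phlda2, which restrains placental growth, had 47.5, 60.9 and 72.6 in the E13.5 libraries and 777, 584 and 628 in those of E16.5, followed by 383, 302 and 343 on the day of birth and 252, 234 and 178 by P3. Slc22a18, an organic cation transporter gene beside it, had 61.2, 35.9 and 96.8 at the first stage (E13.5), 843, 744 and 639.5 in the E16.5 libraries, 572, 521 and 563 at birth and 281, 254 and 293 on P3. Both were called higher at E16.5 (3.45 and 3.60) and lower at P3 than at P0 (-0.64 and -0.999). Ascl2, a transcription factor gene needed for the placenta, fell from 2123, 2469 and 2491 at E13.5 to 468, 438 and 400.5 at E16.5. It had 417, 444 and 503 at P0, which was not called against E16.5 under the deposited factors but was called higher with TMM factors (0.27, adjusted p = 0.0328), median-of-ratios factors (0.32, adjusted p = 0.0159) and equal library totals (0.72, adjusted p = 1.93e-05). It was 1060.1, 1006 and 993 at P3, with log2 fold changes of -2.44 (standard error 0.102, adjusted p = 1.23e-12) to E16.5 and 1.17 (standard error 0.102, adjusted p = 2.02e-08) from P0 to P3. Kcnq1, a potassium channel gene, had 3.26 to 9.5 at E13.5 and 40.2 to 48.8 at P0.

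At the Igf2r locus the receptor was lower at E16.5 than at E13.5, and its antisense RNA was called higher at P0 than at E16.5. Igf2r, the receptor that clears Igf2 and is expressed from the maternal copy (chr17:12682406-12769664), had 1050.3, 1012 and 1067 at E13.5, then 523, 586 and 646 at E16.5, 502, 558 and 571 in the P0 libraries and 596, 497 and 671 in the P3 libraries. Its log2 fold change to E16.5 was -0.84 (standard error 0.118, adjusted p = 5.33e-06) and the 3 later stages overlapped under the deposited factors, while with equal library totals P0 was called higher than E16.5 (0.56, adjusted p = 0.00132). Airn, the noncoding RNA of the paternal copy known to silence Igf2r, had 2 reads in all at E13.5 and 18.8, 11.4 and 13.51 at P0. The ratio of P0 to E13.5 was 20.5, with a counting interval of 5.52 to 172. Airn rose from E16.5 to P0 by 2.49 (standard error 0.716, adjusted p = 0.00656), which DESeq2 on the recovered reads did not call (adjusted p = 0.0587). It had 0, 0.93 and 9.5 at E16.5, all below 10 normalized counts, and needed the P0 libraries to pass the filter. This rise was thus partly set by the filter.

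Grb10, Sgce, Peg10 and Plagl1 resembled Dlk1 in rising from E13.5 and falling at P3. Grb10 (chr11:11930508-12038683), an adaptor protein that dampens insulin receptor signalling, had 65.5, 62 and 35.8 in the E13.5 libraries and 1237, 1114 and 1141 in those of E16.5, followed by 3252, 3569.6 and 3221 on the day of birth and 254, 249 and 302 by P3. Its log2 fold changes were 4.44 (standard error 0.174, adjusted p = 5.6e-13), 1.52 (standard error 0.174, adjusted p = 1.06e-06) and -3.64 (standard error 0.174, adjusted p = 1.03e-11). Sgce, encoding epsilon-sarcoglycan, had 21.1, 26.1 and 32.6 at the first stage (E13.5), 722, 772 and 774 in the E16.5 libraries, 652, 589.6 and 448 at birth and 112, 115 and 161 on P3. It rose to E16.5 by 4.80 (standard error 0.199, adjusted p = 1.09e-12) and its log2 fold change from P0 to P3 was -2.12 (standard error 0.199, adjusted p = 5.14e-08). Peg10, a gene derived from a retrotransposon that shares a control region with Sgce, had 4 reads in all at E13.5 and 25.8, 54.9 and 104 at E16.5. The ratio of these stages was 45.3, with a counting interval of 17.5 to 168. Plagl1, a zinc finger transcription factor gene that restrains growth, had 54.9, 88.1 and 46.3 at E13.5, then 82.1, 125 and 127 at E16.5, 471, 461 and 403 in the P0 libraries and 129.8, 147 and 101 in the P3 libraries. It peaked at P0, with log2 fold changes of 0.84, 2.01 and -1.83. The summed peritubular and interstitial, Sertoli and erythroid markers given above for the Dlk1-Meg3 cluster moved with these 4 genes too, being higher in every library of E16.5 and P0 than in any of E13.5, and lower in every P3 library than in any P0 library. As given above, single markers did not all follow these sums. The part of these cells in the levels of these 4 genes was not tested.

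Zrsr1 and Nnat had their highest means at E16.5. Zrsr1, an intronless gene for a splicing factor inside an intron of Commd1, rose from 85.5, 100.1 and 134 to 615, 801 and 741 by 2.76 (standard error 0.164, adjusted p = 1.02e-10) and was 316, 284 and 286 at P0. Nnat, a small proteolipid gene inside an intron of Blcap, rose from 299.8, 347 and 347 to 1571, 1294 and 1475, a log2 fold change of 2.12 (standard error 0.113, adjusted p = 2.42e-11). Nnat had 910.1, 866 and 697 at P0 and 1245, 1187 and 1174 at P3. Its step from E16.5 to P0 was -0.82 (standard error 0.113, adjusted p = 9.28e-06), and -0.15 (adjusted p = 0.214) with equal library totals. Its difference of P3 from E16.5 was -0.26 (standard error 0.113, adjusted p = 0.0476) on the log2 scale and did not pass without E16.5 library 1 (adjusted p = 0.163) or 4 (adjusted p = 0.108) or without any single P3 library (adjusted p of 0.0634 to 0.105). Its host Blcap had 5270.5, 5549 and 5091 in the E13.5 libraries and 6992, 6796 and 5975 in those of E16.5, followed by 3876, 4131 and 3807 on the day of birth and 4618, 4562 and 4623 by P3. Blcap had the highest level per kilobase among members at E16.5 and P0, with 2165 and 1294 normalized counts per kilobase.

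The remaining members moved less or had fewer reads. Trappc9, a subunit of a vesicle tethering complex, fell from 4376, 4459 and 4021 at E16.5 to 2229, 2249 and 2069 at P0 and 1242, 1298 and 1639 at P3, log2 fold changes of -0.97 (standard error 0.093, adjusted p = 1.26e-07) and -0.66 (standard error 0.093, adjusted p = 7.07e-06). Peg13, the noncoding RNA within its intron, had 29.6, 17.4 and 6.31 at the first stage (E13.5), 7.63, 9.3 and 22.2 in the E16.5 libraries, 50.1, 38.6 and 11.1 at birth and 78.5, 66.8 and 73.9 on P3. Its rise at P3 (1.35, adjusted p = 0.0426) was 0.72 (adjusted p = 0.256) without P0 library 4 and was also lost without any single P3 library or without E16.5 library 3. Impact, a regulator of the translational stress response, was highest at E13.5 with 603, 541 and 476 and had 301, 418 and 285 at E16.5, a log2 fold change of -0.70 that became -0.20 (adjusted p = 0.293) with equal library totals. Inpp5f, a phosphoinositide phosphatase of which only a short isoform is known to be imprinted, had 1683 to 2176 in the first 3 stages and 3123, 2894 and 3279.5 at P3. Gnas, the gene of the stimulatory G protein alpha subunit with isoforms of either parental copy, had 39.1, 22.9 and 46.3 at E13.5, then 47.7, 49.3 and 73.6 at E16.5, 126, 114 and 100.4 in the P0 libraries and 109.5, 126 and 143 in the P3 libraries. Its rise to P0 was 1.0 (standard error 0.281, adjusted p = 0.0055), and its rise to E16.5 (0.67, adjusted p = 0.0374) was lost without E13.5 library 3 (adjusted p = 0.197) or E16.5 library 4 (adjusted p = 0.164). Of the exonic bases of Gnas, 13.1% are shared with Gm20721, whose mean was at most 0.174 normalized counts at any stage. As for Igf2, how reads in shared exons were counted is not given.

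Zdbf2 (chr1:63273265-63314576), a zinc finger gene of the paternal copy, had 379, 431 and 384 in the E13.5 libraries and 886, 817 and 894 in those of E16.5, followed by 1211, 1285 and 1255 on the day of birth and 644, 641 and 711 by P3. No stage overlapped another, with P0 highest, and the log2 fold changes were 1.12 (standard error 0.0928, adjusted p = 8.07e-09), 0.53 (standard error 0.0928, adjusted p = 0.00011) and -0.91 (standard error 0.0928, adjusted p = 1.43e-07). The part of the window before the upstream start that RefSeq gives (chr1:63200108-63200312, plus strand) that holds no GENCODE M21 exon is shown because it has 3 matches to the hexamer, in capitals, the most among the printed windows.
Zdbf2: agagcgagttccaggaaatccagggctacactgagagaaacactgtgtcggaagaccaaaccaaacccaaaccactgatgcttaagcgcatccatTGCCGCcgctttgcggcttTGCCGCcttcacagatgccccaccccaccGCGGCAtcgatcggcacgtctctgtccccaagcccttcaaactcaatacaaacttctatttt

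Ratios of genes of 1 cluster within a library hardly depend on the size factor and were therefore tested apart, with an exact permutation test of the F statistic over all 369600 assignments of the 12 libraries to 4 stages. Of 18 pairs listed, 16 had both genes tested, and 13 of these 16 differed among stages after Benjamini-Hochberg adjustment over the 16. The same 13 had an unadjusted p under 0.05 (81.2%). Among all 22343 pairs of neighbouring genes tested, ordered by start on each chromosome, 87.9% did, and 87.2% passed after adjustment over all of them, so a ratio that differs among stages is not particular to imprinted neighbours. The median range of the stage means was 2.75 for the 16 pairs and 3.07 for all neighbouring pairs. The log2 ratio of Snrpn to Ndn was 1.78 ± 0.092 at E13.5 and -3.45 ± 0.488 at E16.5, followed by -2.66 ± 0.157 at birth and -0.39 ± 0.101 on P3 (mean ± SD, n = 3 per stage, exact permutation p = 6.49e-05, adjusted p = 0.000519). Mest to Copg2 went from 0.22 ± 0.04 to -2.21 ± 0.199, 0.59 ± 0.11 and 1.17 ± 0.166 over the same stages, with the same p, the smallest the test can give. Peg3 to Usp29 went from 4.18 ± 0.139 to 3.27 ± 0.337, 1.94 ± 0.242 and 2.25 ± 0.304 (exact permutation p = 0.00013, adjusted p = 0.000693). H13 to Mcts2 was 0.20 ± 0.021 at E13.5, rose to 2.79 ± 0.333 and 2.98 ± 0.104 in the next stages and was 0.33 ± 0.185 on P3 (exact permutation p = 0.00253, adjusted p = 0.00496). In these 4 pairs the ratio differed among stages, as it did in most pairs of neighbouring genes.

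Other pairs kept their ratio more closely. Dlk1 to Meg3, expressed from opposite copies of 1 cluster, had log2 ratios of 2.97 ± 0.514, 2.49 ± 0.203, 2.53 ± 0.146 and 3.12 ± 0.136 from the first to the last stage (exact permutation p = 0.0711, adjusted p = 0.0813). The adjusted p was 0.0163 without E13.5 library 4, 0.0456 without E13.5 library 1 and 0.0225 with a pseudocount of 10, so a difference of the ratio between stages was called in these settings. The ratio of Phlda2 to Slc22a18 spanned 0.69 between its lowest and highest stage means (adjusted p = 0.222) and that of Peg10 to Sgce spanned 1.15 (adjusted p = 0.271, and 0.0377 with a pseudocount of 10). The noncoding RNAs of the Dlk1-Meg3 cluster shifted against each other: Meg3 to Rian was -0.73 ± 1.03, 1.40 ± 0.141, 0.56 ± 0.095 and 1.75 ± 0.433 in the same order (exact permutation p = 0.000195, adjusted p = 0.000779). The ratio of H19 to Igf2 was lower at P3 (2.38 ± 0.275) than at E13.5 (6.01 ± 1.64), where Igf2 had 10 reads in all.

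**Figure D5:**
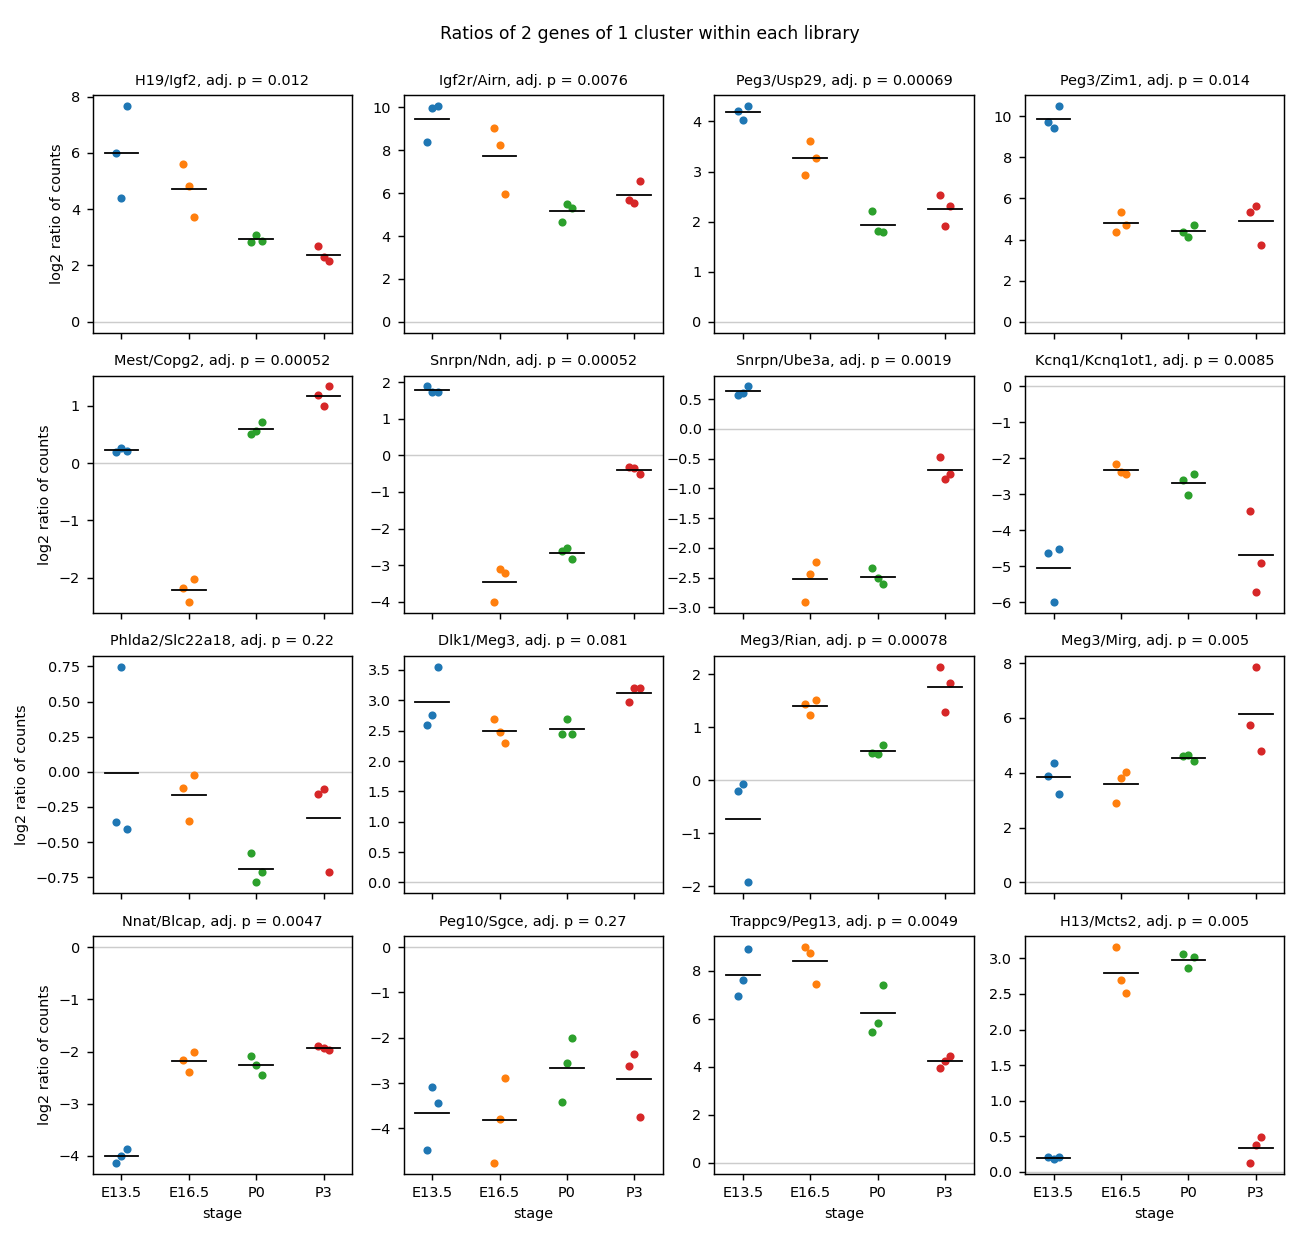
Log2 ratio of neighbouring imprinted genes in each library, by stage, with bars at the stage means. Snrpn/Ndn falls from 1.78 to -3.45 and Mest/Copg2 from 0.22 to -2.21 between E13.5 and E16.5, while Dlk1/Meg3 stays between 2.29 and 3.55 in all 12 libraries.

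The comparisons that stay within a genotype tag pair P0 with E13.5 and P3 with E16.5. At P0 against E13.5, both tagged (+/-), 34 of 38 members passed against 86.1% of all genes, 21 higher and 13 lower (45.7% and 40.5%). Equal library totals gave 30 members higher and 5 lower, with 77.2% higher among all genes called. The log2 fold change was 5.31 for Dlk1, 5.75 for Meg3, 4.45 for Rian, 5.96 for Grb10, -4.53 for Snrpn and -3.81 for Peg3, with adjusted p of at most 6.2e-11. At P3 against E16.5, both tagged (-/-), 29 of 38 passed against 69.5%, 12 higher and 17 lower (34.2% and 35.2%). The log2 fold change was 3.31 (standard error 0.0693, adjusted p = 3.34e-15) for Mest and -2.56 (standard error 0.199, adjusted p = 6.12e-09) for Sgce. Dlk1 was not called, at -0.14 (adjusted p = 0.365). These comparisons share libraries with the consecutive ones.

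Genes that erase, lay down or protect imprints were counted in the same libraries, as a list of 21 regulators, all of them tested. By E16.5, 11 had risen and 9 had fallen, beside 45.5% and 34.6% of all genes. From E16.5 to P0 none rose and 15 fell, beside 27.6% and 33.4%. From P0 to P3 9 rose and 10 fell, beside 40.1% and 36.4%. Their median log2 fold changes were 0.41, -0.58 and 0.33, beside 0.31, -0.01 and 0.05 for all genes. At P0 against E16.5 with equal library totals 5 were higher and 7 lower, with a median of 0.08 beside 0.68. Of all genes called in that setting 78.7% were higher. Dnmt3l, the cofactor of de novo DNA methylation, had 23.2, 17.4 and 12.6 at the first stage (E13.5), 22397, 19541 and 19086 in the E16.5 libraries, 7139, 6195 and 6521 at birth and 564, 514 and 502 on P3. Tet1, which starts the removal of DNA methylation, fell from 5871, 5911 and 6137 at E13.5 to 279, 373 and 386 at E16.5, and the maintenance cofactor Uhrf1 rose from 1603, 1329 and 1196 at P0 to 30251, 30377 and 34049.5 at P3. Zfp57 had at most 71.7 normalized counts in any library. Zfp445, the other known imprint-protecting zinc finger, had 601, 614 and 562 at E13.5 and 357, 306 and 295 at E16.5, a log2 fold change of -0.89 (standard error 0.127, adjusted p = 6.06e-06).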

How the data were processed

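RNA was sequenced from 12 libraries of male germ cells, 3 at each of 4 stages. Per the labels' protocols, SMART-seq v4 and TruSeq mRNA kits were applied to total RNA. The submitters' processing notes name bcl2fastq 2.20, cutadapt 1.18, HISAT2 2.1.0, featureCounts 1.5.2, DESeq2 1.26.0 and the build mm10/GRCm38. Their settings, the annotation release, strand handling and the treatment of reads that match several genes are not given in the sources used here. The authors deposited 1 signal table of 55487 genes, in which each value is a read count divided by 1 size factor per library (RLE). In every library 100% of the values were whole multiples of what 1 read is worth (tolerance 0.001), so whole reads and size factors were recovered.

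Column heads name the stage but not the replicate of the titles, so libraries were grouped by stage only. The main test was limma 3.58.1 in R 4.3.3 (trend, all 4 stages in 1 fit, 8 residual degrees of freedom) on log2(normalized count + 1), since the values were normalized. It covered 22384 genes that reached 10 normalized counts in 3 or more libraries. P-values were adjusted by Benjamini-Hochberg over all genes tested, with a threshold of 0.05. All 40 members are named. The 21 regulators were counted as a list. Of the other imprinted genes, the 2 highest and 2 lowest called changes of each consecutive step are named. Slc22a3, Cdkn1c and Atp10a were chosen outside this rule after their values were seen, as were Dnmt3l, Tet1, Uhrf1, Zfp57 and Zfp445. The members and lists were chosen with earlier results of these data known. The within-cluster ratios were tested by exact permutation of the F statistic with scipy 1.17.1. Alternatives were other size factors, equal library totals, other pseudocounts (0.1 and 10), other filters (none, or a mean of 100 or more), a minimum log2 fold change of 1 in either direction, only the 2 stages compared, each library left out, a block on the column number, and edgeR 4.0.16 and DESeq2 1.42.0 on the recovered reads. The fits were checked on simulated data. Symbols matched 55141 of 55487 identifiers (99.4%). Gene positions came from GENCODE M21 (GRCm38) and promoter windows from RefSeq (GRCm38.p6). Counts at 40946616 to 51533747 reads per library carry counting error only in the intervals (exact, 95%) and in the floor of 3 reads, since amplified reads are not independent molecules. Libraries of 1 stage differed by more than sampling noise (chi-square per gene of 5.75 to 21.2), so none was treated as a copy.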

Additional observations from a re-analysis of the deposited data

How the results depend on the processing

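The counts of members that passed were within 1.5 times the main count in most settings. A minimum log2 fold change of 1 in either direction left 10 members for the step from E16.5 to P0 and 16 for that from P0 to P3, by construction. With each library left out in turn they were 33 to 35, 24 to 28 and 28 to 30 over the consecutive steps, 33 to 35 between E13.5 and P0, and 26 to 29 between E16.5 and P3. All 38 differed among stages in each of these fits, and 13 to 14 ratios passed. With a mean of at least 100, fewer pairs could be tested and 7 ratios passed. The difference between the medians at paternally and maternally methylated loci was 3.83 to 4.17, 0.97 to 1.04, -1.01 to -0.86, 4.67 to 4.90 and -0.04 to 0.19 in these 5 comparisons, in the same order, when single libraries were left out. At E16.5 against E13.5 it was 2.03 with a pseudocount of 10, 3.04 with no filter, 4.30 with a mean of at least 100, 3.14 with Zdbf2 counted as paternally methylated and 4.58 with 1 value per locus. At P3 against P0 it was 0.502 with 1 value per locus. At P0 against E13.5 it was 5.13 and 3.81 with pseudocounts of 0.1 and 10, and 5.57 with a mean of at least 100. At P3 against E16.5 it was -0.246 with no filter and 2.55 with 1 value per locus. The cause of these shifts was not tested.

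Direction turned for single members mainly with equal library totals. The values so obtained at P0 against E16.5 were 0.067 for Ndn, 0.56 for Igf2r, 0.12 for Copg2, 0.31 for Mcts2, 0.50 for H13 and 0.18 for Impact. At P3 against P0 they were -0.18 for Mkrn3, -0.53 for Kcnq1ot1, -0.74 for Igf2r, -0.36 for Copg2, -0.29 for Nnat, -0.62 for Blcap, -0.55 for Impact, -0.30 for Inpp5f and -0.68 for Gnas. At P0 against E13.5 they were 0.60 for H19, 1.08 for Ndn, 0.23 for Igf2r, 0.35 for Mest, 0.74 for Blcap and 0.42 for Trappc9, and at E16.5 against E13.5 0.43 for Inpp5f. With median-of-ratios factors Igf2r (-0.34) and Blcap (-0.21) turned at P3 against P0 and Ndn (0.39) and Blcap (0.050) at P0 against E13.5. With TMM factors Blcap (-0.065) turned at P3 against P0 and Ndn (0.22) at P0 against E13.5. The column numbers 1, 3 and 4 are not the replicate numbers of the titles and do not show that libraries are paired: deviations from the stage means correlated at -0.036 to 0.042 over the 18 pairs of libraries with the same number, and 2 of 12 libraries were closest to their own number. With that number as a replicate block, an alternative added after the data were seen, 35, 25 and 29 members passed over the consecutive steps, 33 between E13.5 and P0 and 27 between E16.5 and P3, and 13 ratios passed. Depth limits Rtl1, Magel2, Airn, Igf2, Mirg, Peg10 and Rasgrf1 at E13.5, where few or no reads were recovered.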

Other observations

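A second list of 41 other imprinted genes, of which 39 were tested, was counted for comparison. By E16.5, 21 had risen and 17 had fallen since E13.5, beside 45.5% and 34.6% of all genes. From E16.5 to P0 19 rose and 8 fell, beside 27.6% and 33.4%, and from P0 to P3 8 rose and 26 fell, beside 40.1% and 36.4%. The median log2 fold changes were 0.69, 0.72 and -0.86, beside 0.31, -0.01 and 0.05 for all genes. With equal library totals 28 rose and 3 fell from E16.5 to P0, where 78.7% of all genes called rose. From P0 to P3 in that setting 6 rose and 31 fell, where 25.2% of all genes called rose. Slc22a2 and Slc22a3, transporter genes beside Igf2r that are imprinted in the placenta, were at 0 in all libraries at E13.5. Slc22a2 had 237, 166 and 198 at E16.5, 347, 379 and 377 at P0 and 5.81, 20.6 and 2.02 at P3, and its E16.5 mean was at least 62.6-fold above the mean of the E13.5 floor of 3 reads per library. Ano1, a chloride channel gene, rose from 8.44, 2.18 and 5.26 at E13.5 to 528, 611 and 480.4 at E16.5, a log2 fold change of 6.55 (standard error 0.295, adjusted p = 2.94e-12). Peg12, a gene near Ndn, fell over the same step from 109.8, 175 and 151 to 17.2, 11.2 and 15, by -3.24 (standard error 0.41, adjusted p = 1.6e-06) on the log2 scale. From E16.5 to P0 Nap1l5, a retrogene inside an intron of Herc3, rose from 132, 126 and 193 to 834, 766 and 831, a log2 fold change of 2.45 (standard error 0.176, adjusted p = 3.59e-09). Pon3, a paraoxonase gene near Peg10, rose from 74.4, 75.3 and 79.9 to 326, 294 and 310.4 with a log2 fold change of 2.00 (standard error 0.183, adjusted p = 7.15e-08). Commd1, the host of Zrsr1, fell over this step from 1294, 1035 and 1329 to 404, 390.2 and 424, a log2 fold change of -1.58 (standard error 0.115, adjusted p = 4.21e-09). Zim2, a zinc finger gene beside Peg3, rose from 39.7, 39.1 and 47.3 at P0 to 178, 169.9 and 168 at P3, a log2 fold change of 2.01 (standard error 0.244, adjusted p = 1.17e-06). Calcr, the calcitonin receptor gene near Peg10, was 5.28, 8.71 and 6.31 at E13.5 and 272, 223 and 206 at P0, and its log2 fold change from P0 to P3 was -5.38 (standard error 0.389, adjusted p = 1.83e-09). Nespas, an antisense RNA of the Gnas locus, had 250.2, 248 and 303 at E13.5, then 7.63, 13.9 and 19 at E16.5, 2.61, 20.6 and 6.76 in the P0 libraries and 117, 163 and 183 in the P3 libraries. It was high at E13.5 and P3 and low between them. Its exons overlap 8.83% of the exonic bases of Gnas. Th, encoding tyrosine hydroxylase, had a log2 fold change of -3.12 (standard error 0.454, adjusted p = 1.65e-05) from E16.5 to P0. Cdkn1c, the cell cycle inhibitor of the Kcnq1 locus, had 3498, 3238 and 3353 in the E13.5 libraries and 1968, 1674 and 1977 in those of E16.5, followed by 5790.5, 6074 and 6429 on the day of birth and 1498, 1485 and 1259 by P3.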
